A study of Mus musculus with 6 samples.

Results

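The 10 genes described here encode the core of the mechanical junctions of the cardiac intercalated disc, and form a list of names given by that role, with no rule on their values. They are the desmosomal genes Dsg2, Dsc2, Jup, Pkp2 and Dsp, the adherens junction genes Cdh2, Ctnnb1, Ctnna1 and Ctnna3, and Pkp4, a relative of the plakophilins. All 10 were found among the 43432 genes of the table, of which 24679 had a read in any library. RNA was sequenced from the right and left atria of wild-type C57/Bl6J mice that received a high-fat diet (HFD; obese, 3 mice) or control chow (lean, 3 mice) for 10 weeks from 6 weeks of age, with no other treatment or allele named in either group. Each mouse gave 1 library. Titles decided the diet of each library, and the table heads its columns in the same way. A separate treatment entry in the labels contradicts the title of all 6 libraries, and every direction stated here would turn if that entry were right. The labels do not say whether mice shared a litter or cage.

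Neighbouring cardiomyocytes are held end to end at the intercalated disc. In the desmosome, the cadherins desmoglein 2 and desmocollin 2 meet across the gap, bind plakoglobin and plakophilin 2 inside the cell, and reach the desmin filaments through desmoplakin. In the adherens junction, N-cadherin binds β-catenin, and α-catenins tie it to actin; in the heart both junction types mix in a hybrid zone, the area composita. Inherited variants in the desmosomal genes cause arrhythmogenic cardiomyopathy.

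Reads assigned to genes ranged from 15874251 to 28971508 per library. In each group 1 library stood apart from the other pair. The distance between libraries (chi-square per gene over the recovered reads) reached 52.0 from lean mouse 2 to the other lean mice, against 15.6 between those, and 55.6 from obese mouse 3 to the other obese mice, against 17.7 between those. Lean mouse 2 had the deepest library, 30.7% of its reads from mitochondrial genes against 19.5% to 24.4% elsewhere, and the highest mean level of the 4 ventricular myocyte markers. The working myocyte markers were abundant in every library, which fits the tissue label. Of 5 markers of squamous and glandular epithelium, other tissues rich in desmosomes, Krt5 had no read in any library, Epcam reached 3.36 normalized counts and Cdh1 and Trp63 each reached 13.0. Krt14 was detected in every library, at 12.3 to 24.1 normalized counts, and its groups overlapped. A count of 0 allows up to 2.05 normalized counts in lean mouse 2 and 3.01 to 3.41 in the others (3 reads, counting error only).

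The first question was which of these genes atrial tissue held at what level. Normalized counts are reads divided by a size factor for each library, and they were divided by exon length only to compare genes with each other. On this scale Ctnna1, the α-catenin found in most tissues, had the highest level, at 1514 normalized counts per kb (mean of 6 libraries, range 1206 to 1802). Ctnnb1, which encodes β-catenin, followed at 1206 per kb and was below Ctnna1 within each of the 6 libraries, although the ranges of these genes over libraries overlapped. Dsp, the desmoplakin gene, came next at 969 per kb, Jup, which encodes plakoglobin, at 700 per kb and Pkp4 at 552 per kb. From Ctnnb1 to Pkp4, no gene overlapped with the next in this order. The levels of Dsc2 (376 per kb), Cdh2 (359 per kb), Pkp2 (322 per kb) and Dsg2 (311 per kb) each overlapped over the libraries with their neighbours among these 4 genes. Pkp4 overlapped with Dsc2 below it and exceeded it in 5 of 6 libraries.

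Ctnna3 encodes αT-catenin, the α-catenin largely restricted to heart and testis, and had the lowest level, at 46.8 normalized counts per kb (range 36.4 to 55.3). It lay below Dsg2, the next lowest gene, in 6 of 6 libraries. Lengths were of all annotated exons. With the length of the longest coding transcript instead, Jup moved above Dsp, Dsc2 moved from place 6 to place 9, and the genes at places 1, 2, 5 and 10 stayed there.

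**Figure D1:**
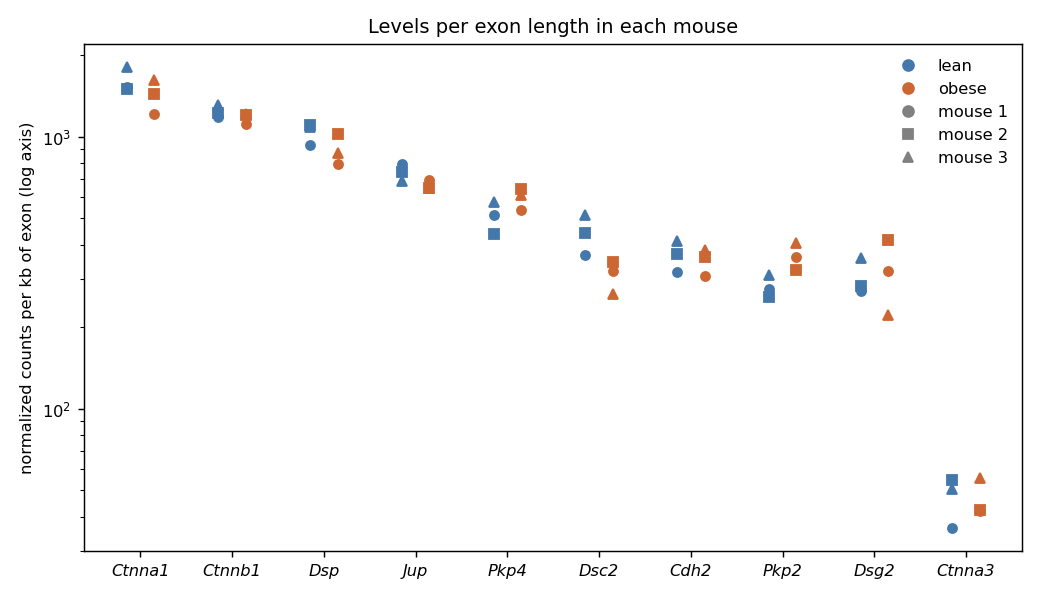
Normalized counts per kb of exon for the 10 junction genes in each mouse, on a log axis, with lean mice in blue, obese mice in orange and a symbol for each mouse. Ctnna1 was highest at 1514 per kb and Ctnna3 lowest at 46.8 per kb, both as means of 6 libraries.

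Desmosomal cadherin and plakophilin genes typical of epithelia were barely detected. Of 13 other desmosome genes listed, 9 were below a mean of 10 normalized counts and were not tested, and Dsc1 and Dsg1b, desmosomal cadherin genes of skin, had no read in any library. Pkp3, a plakophilin of epithelia, had 3.06 to 13.1 normalized counts, and Dsc3 had 2.01 to 8.90. No desmosomal cadherin or plakophilin gene other than Dsg2, Dsc2, Pkp2 and Pkp4 exceeded 13.1 normalized counts in any library.

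The main question was whether obese atria differed from lean atria in these genes. None of the 10 passed the test over all genes (limma on log2 normalized counts, adjusted p under 0.05), which called 114 of 15275 genes, or 0.746%. At an unadjusted p under 0.05, Dsc2 was lower and Pkp2 higher in obese atria, 2 of 10 genes against 12.2% of all genes tested. These were also the 2 genes whose groups did not overlap, against 18.0% of all genes tested. The median log2 fold change of the 10 genes was -0.07, with 3 values above 0 and 7 below, and that of all genes tested was 0.00. The median absolute log2 fold change was 0.172 for the 10 genes, 0.182 for all genes tested, and 0.132 for the 6860 genes at least as abundant as Ctnna3.

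**Figure D2:**
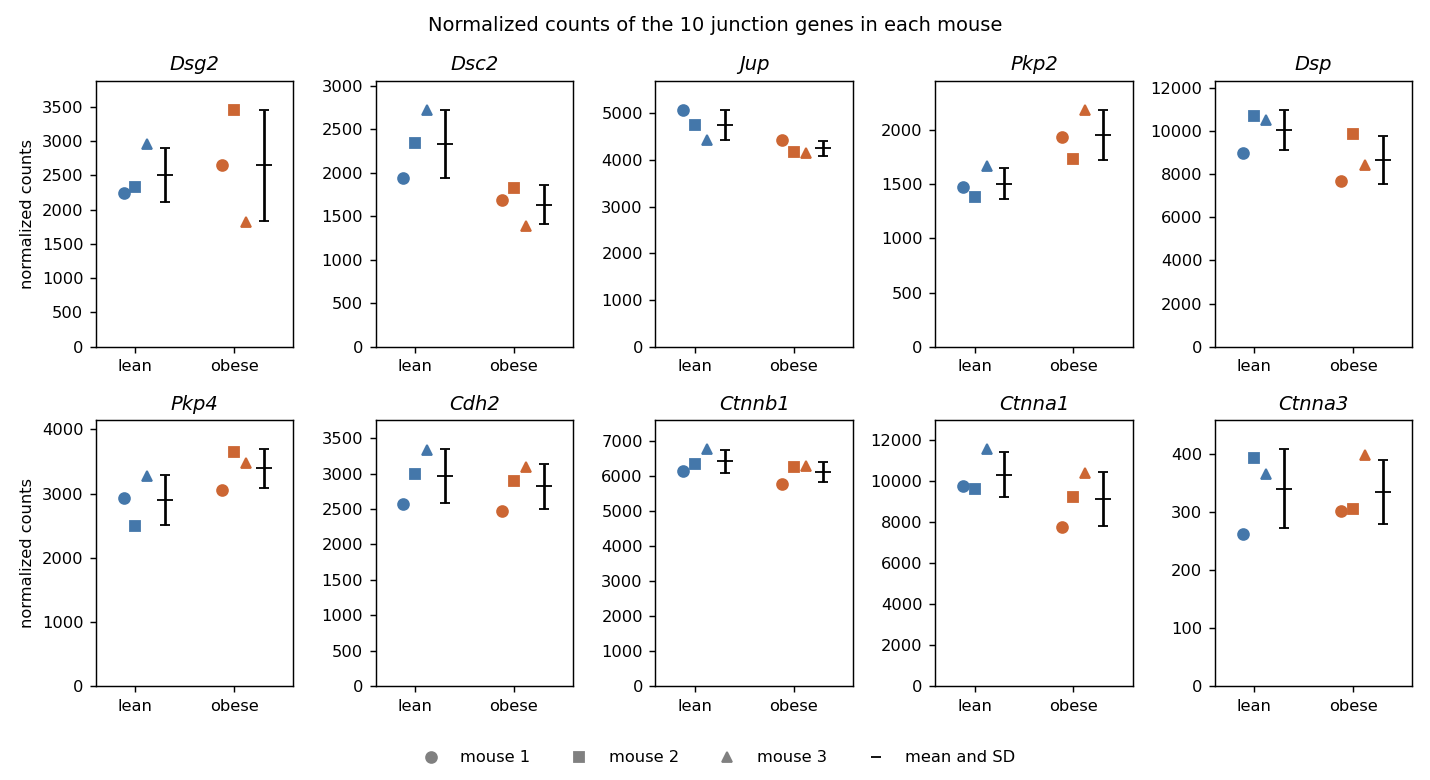
Normalized counts of the 10 junction genes (vertical axes from 0, a separate scale for each gene) in lean and obese mice, with a symbol for each mouse and the mean and SD of 3 mice beside them. In Dsc2 all obese mice were below the lean range and in Pkp2 all were above it, while in the other 8 genes the groups overlapped.

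Of the desmosomal cadherins, Dsc2 showed the largest difference of the 10 genes. Dsc2 (ENSMUSG00000024331) had 1687, 1828 and 1387 normalized counts in obese mice 1, 2 and 3 and 1938, 2339 and 2725 in lean mice 1, 2 and 3. The highest obese value was thus under the lowest lean value. Obese mice averaged 1634 ± 225 and lean mice 2334 ± 393 (SD, n = 3), a fitted fold of 0.702. The log2 fold change was -0.51 (SE 0.15, 95% interval -0.85 to -0.17), with an adjusted p of 0.172 (limma; 0.00672 unadjusted). The two-sided exact permutation test gave p = 0.1, the smallest that 3 mice against 3 allow.

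The call for Dsc2 depended on the test. DESeq2 on the recovered reads gave an adjusted p of 0.0429 and called Dsc2 alone of the 10 genes, in a fit that called 3.58% of the 13489 genes with an adjusted p. The edgeR quasi-likelihood test gave an adjusted p of 0.181. Dsc2 was lower whichever mouse was left out, with a log2 fold change between -0.64 and -0.39, and it was -0.50 without lean mouse 2 (adjusted p = 0.480, limma) and -0.40 without obese mouse 3 (adjusted p = 0.235).

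Dsg2 (ENSMUSG00000044393), the gene of the desmoglein that partners desmocollin 2, had 2654, 3452 and 1823 normalized counts in obese mice and 2235, 2331 and 2956 in lean mice. Obese mice 2 and 3 held the highest and the lowest of the 6 values, and the coefficient of variation in obese mice, 30.8%, was the largest of the 10 genes. The means were 2643 ± 815 and 2507 ± 391, with a log2 fold change of 0.04 (SE 0.21, 95% interval -0.42 to 0.50) and an adjusted p of 0.966 (limma). The interval held differences of either sign, and what size of difference 3 mice a group could detect was not tested. The sign of Dsg2 turned when single mice were left out, between -0.18 without obese mouse 2 and 0.28 without obese mouse 3.

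Plakophilin 2 and plakoglobin are armadillo-repeat proteins of the desmosomal plaque. Pkp2 (ENSMUSG00000041957; GRCm38 chr16:16213318-16272712, forward strand) had 1931, 1731 and 2186 normalized counts in obese mice and 1471, 1378 and 1664 in lean mice. The lowest obese value was thus over the highest lean value. Obese mice averaged 1949 ± 228 and lean mice 1504 ± 145, a fitted fold of 1.29. The log2 fold change was 0.37 (SE 0.13, 95% interval 0.09 to 0.65), with an adjusted p of 0.250 (limma; 0.0141 unadjusted) and an exact permutation p of 0.1. Without lean mouse 2, whose value was the lowest of the 6, it was 0.31, with an adjusted p of 0.668 (limma; 0.0683 unadjusted), and without obese mouse 3 it was 0.29 (adjusted p = 0.320).

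Jup (ENSMUSG00000001552), the plakoglobin gene, had 4440, 4168 and 4150 normalized counts in obese mice and 5083, 4762 and 4438 in lean mice. The groups touched only at obese mouse 1 and lean mouse 3, which differed by less than the spread within either group. The log2 fold change was -0.16 (SE 0.11, 95% interval -0.40 to 0.07) and the adjusted p 0.599 (limma). Dsp (ENSMUSG00000054889), whose product links the plaque to desmin, had 7680, 9852 and 8443 normalized counts in obese mice and 8981, 10689 and 10499 in lean mice. Obese mouse 2 was within the lean range, and the log2 fold change was -0.22 (SE 0.13, 95% interval -0.51 to 0.07; limma adjusted p = 0.560).

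Pkp4 encodes plakophilin 4, an armadillo-repeat protein of the p120-catenin family that is found at both junction types. Pkp4 (ENSMUSG00000026991) had 3062, 3652 and 3473 normalized counts in obese mice and 2936, 2502 and 3274 in lean mice. Obese mouse 1 was within the lean range. The log2 fold change was 0.23 (SE 0.13, 95% interval -0.06 to 0.52), with an adjusted p of 0.522 (limma).

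The groups overlapped for all 4 adherens junction genes. Cdh2, the N-cadherin gene, had 2468, 2898 and 3094 normalized counts in obese mice and 2569, 2990 and 3337 in lean mice, with a log2 fold change of -0.07 (95% interval -0.37 to 0.22; limma adjusted p = 0.883). Ctnnb1 had 5772, 6240 and 6296 in obese mice and 6129, 6344 and 6774 in lean mice, with a log2 fold change of -0.07 (95% interval -0.31 to 0.16; limma adjusted p = 0.841). Beside being a junction protein, β-catenin carries the canonical Wnt signal in the nucleus. Ctnna1 had 7751, 9241 and 10410 in obese mice and 9767, 9632 and 11581 in lean mice, with a log2 fold change of -0.18 (95% interval -0.49 to 0.13; limma adjusted p = 0.655). Ctnna3 had 302, 305 and 400 in obese mice and 263, 394 and 366 in lean mice, with a log2 fold change of -0.01 (95% interval -0.43 to 0.40; limma adjusted p = 0.988). The obese mice ranked alike for Cdh2, Ctnnb1 and Ctnna1, with mouse 1 lowest and mouse 3 highest for all of them. Lean mouse 3 was the highest of the 6 mice for each of these genes.

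These intervals hold for the deposited scaling and for the spread between these mice. For Ctnnb1, the gene with the narrowest interval of the adherens group, a difference beyond 0.31 log2 units in either direction lay outside the interval. For Ctnna3 and Dsg2 the farther limit was -0.43 and 0.50.

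**Figure D3:**
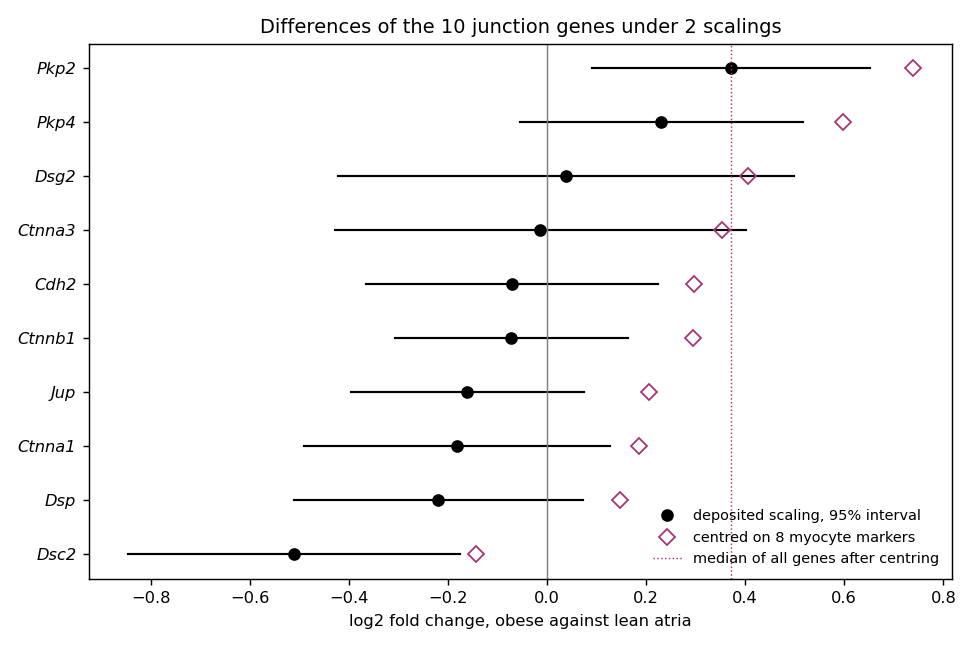
Log2 fold change of obese against lean atria for the 10 junction genes, with black points and 95% intervals on the deposited scaling and open diamonds after centring each library on 8 myocyte markers. The grey line is 0, and the dotted line is the median of all genes after centring, 0.37; the interval excluded 0 only for Dsc2 and Pkp2.

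Markers of cell types went in mixed directions between the groups, and the summed levels of most lists overlapped. All 8 atrial and general myocyte markers had a log2 fold change below 0 (median -0.38), 4 of them at an unadjusted limma p under 0.05 and none past the adjusted threshold. Their summed level was 728175 to 1323124 normalized counts in obese mice and 1121243 to 1184981 in lean mice. Obese mice 1 and 2 were low, and obese mouse 3 was the highest of the 6 and at the same time the lowest for Dsc2. The 5 endothelial markers all had log2 fold changes above 0 (median 0.14), and their summed level did not overlap, at 14087 to 15398 in obese mice and 11802 to 12280 in lean mice. That gap rested on Pecam1 (log2 fold change 0.57), as the other 4 markers summed to 8243 to 9140 in obese mice and 7697 to 8393 in lean mice, which overlap. Medians of the other lists went both ways, with -0.37 for ventricular myocyte, -0.15 for fibroblast and -0.01 for mesothelial markers. The summed ventricular level was 13770 normalized counts in lean mouse 2, against 5561 and 4262 in lean mice 1 and 3. In obese mice it was 4326 to 6415, so lean mouse 2 alone stood above the obese range. Macrophage markers had a median of 0.23, smooth muscle 0.37 (range -0.43 to 1.08) and adipocyte 0.56 (range -1.41 to 4.43). The summed smooth muscle level also did not overlap, but it was lower in obese mice despite that median. It stood at 3396 to 4031 normalized counts in obese mice and 4278 to 4582 in lean mice. The 1 epithelial marker tested was at -0.06. Cdh2, Ctnnb1, Ctnna1 and Jup are known to be expressed by cells other than myocytes as well. In bulk tissue, fewer cells of a type and less RNA per cell cannot be told apart, and the part of these markers in the differences above was not tested.

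When each library was centred on the 8 myocyte markers, 0.37 was added to every log2 fold change, and the median of all genes was then 0.37. Pkp2 was at 0.74 and Pkp4 at 0.60, above that median, and Dsc2 at -0.14 (limma adjusted p = 0.760), below it. Jup, Dsp, Cdh2, Ctnnb1, Ctnna1 and Ctnna3 turned from below to above 0, between 0.15 and 0.35, and all 6 were below the median of all genes. Of the 10 genes, only Dsc2 kept a value below 0, and none passed the adjusted threshold.

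A ratio of 2 genes within a library does not depend on the scaling of that library. Of the 45 pairs among the 10 genes, 13 had ratios that did not overlap between the groups (28.9%), against 18.1% of all pairs of genes tested. Pkp2 was in 6 of these 13 pairs and Dsc2 in 5. The pairs named here were chosen after their values were seen, pairs that share a gene are not independent, and no test was made of them.

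The ratio of the desmosomal cadherin genes was higher in each obese library than in any lean library. Dsg2 relative to Dsc2 stood at 1.57, 1.89 and 1.31 in obese mice and at 1.15, 0.996 and 1.08 in lean mice, with no overlap. These are ratios of counts not divided by length, which compare the groups and do not rank the levels of the genes. The mean ratio was 1.48 times as high in obese mice. In the plaque, Jup relative to Pkp2 stood at 2.30, 2.41 and 1.90 in obese mice and at 3.46, 3.45 and 2.67 in lean mice, 0.690 times as high. Dsc2 relative to Pkp2 was between 0.634 and 1.06 in obese mice and between 1.32 and 1.70 in lean mice, 0.551 times as high, the largest difference of the 45 pairs. Pkp2 was also higher relative to Ctnna1 (1.48 times) and Dsp (1.52 times), and Pkp4 higher relative to Ctnna1 (1.33 times) and Dsp (1.35 times). The ratio of the α-catenin genes, Ctnna1 to Ctnna3, overlapped, with 25.6, 30.3 and 26.0 in obese mice and 37.1, 24.5 and 31.6 in lean mice.

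**Figure D4:**
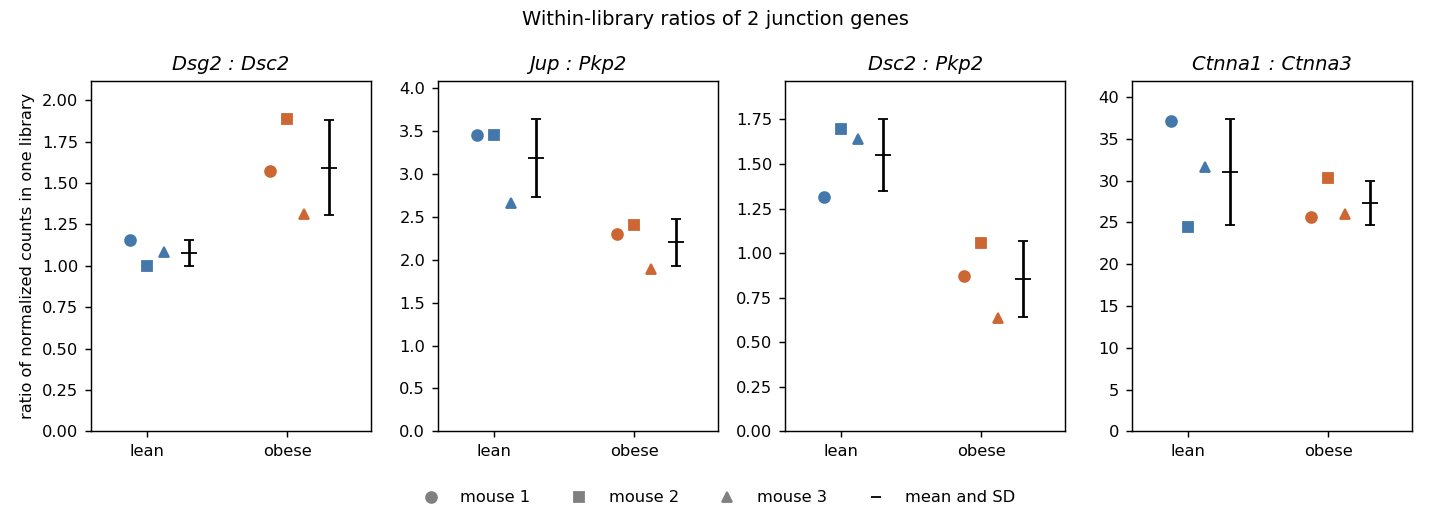
Ratio of normalized counts of 2 genes within each library (vertical axes from 0), for Dsg2 to Dsc2, Jup to Pkp2, Dsc2 to Pkp2 and Ctnna1 to Ctnna3, with a symbol for each mouse and the mean and SD of 3 mice. The first 3 ratios did not overlap between lean and obese mice, and the fourth, shown for comparison, did.

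Genes that work with these junctions were described from lists fixed by function. Of the other desmosome genes, 4 were tested and none was called. Des encodes desmin, the filament to which the desmosome is anchored, and had a log2 fold change of 0.27 (limma adjusted p = 0.526), with 25031, 22875 and 30950 normalized counts in obese mice and 23794, 21911 and 19469 in lean mice. Perp, a desmosomal membrane protein gene, was at -0.18 (limma adjusted p = 0.584). The median of the 4 genes was 0.21.

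Of 23 other adherens junction and area composita genes, 21 were tested and none was called, with a median of -0.03. The smallest unadjusted p-values belonged to Tln2, which encodes the actin linker talin 2, at -0.25 (limma adjusted p = 0.418), and to Ctnnal1, which encodes α-catulin, at 0.34 (limma adjusted p = 0.425). The groups of 3 genes did not overlap in the lower direction (Tln2, Cdh13 and Vezt) and those of 1 did in the higher (Ctnnd2), 4 of 21 against the 18.0% of all genes; these were named after their values were seen.

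Of 6 genes listed for disc channels, which include ankyrin genes, 1 was called, lower in obese atria, against 0.746% of all genes tested. At an unadjusted limma p under 0.05, 2 of the 6 were lower (Gja5 and Gja1), against 12.2% of all genes in either direction. Gja5, which encodes the atrial gap junction protein connexin 40, had 1060, 1254 and 1554 normalized counts in obese mice and 2152, 3019 and 3277 in lean mice. Its log2 fold change was -1.12 (SE 0.18), with an adjusted p of 0.0252 (limma). On the recovered reads, DESeq2 gave Gja5 an adjusted p of 3.0e-07 and the edgeR quasi-likelihood test 0.0308. Its log2 fold change stayed between -1.30 and -0.99 with single mice left out. However, its limma adjusted p was 0.0708 and 0.0931 without obese mice 1 and 2 and 0.125 without lean mouse 2 or 3. After centring on the myocyte markers it was 0.203 (log2 fold change -0.75). Gja1, the gene of the most widespread cardiac connexin, was at -0.40 (limma adjusted p = 0.322), with obese mouse 3 within the lean range. The median of the 6 genes was -0.03.

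Because β-catenin also acts in Wnt signalling, the genes that turn it over and those that respond to it were listed as well. None of 10 genes of the destruction complex and the TCF/LEF factors was called (median 0.00). Those with the smallest p were Tcf7l2, a TCF factor gene, at -0.31 (limma adjusted p = 0.464) and Btrc, which encodes a ubiquitin ligase subunit that marks β-catenin for breakdown, at -0.24 (limma adjusted p = 0.535). Of 8 target genes tested, none was called, and the median was 0.07. Axin2, a feedback inhibitor and common readout of the pathway, had 227, 251 and 178 normalized counts in obese mice and 166, 168 and 164 in lean mice, with no overlap, a log2 fold change of 0.38 and a limma adjusted p of 0.413. Notum, a secreted inhibitor gene, was at 1.34 (limma adjusted p = 0.411) on low counts, with 25.1, 23.5 and 11.4 in obese mice and 7.84, 4.11 and 9.84 in lean mice. The groups did not overlap for 2 of the 8 target genes, both higher in obese mice (Axin2 and Notum). They also did not overlap for 2 of the 10 turnover and TCF genes, both lower (Btrc and Ctnnbip1). Of all genes tested, 18.0% did not overlap, and these were named after their values were seen.

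**Figure D5:**
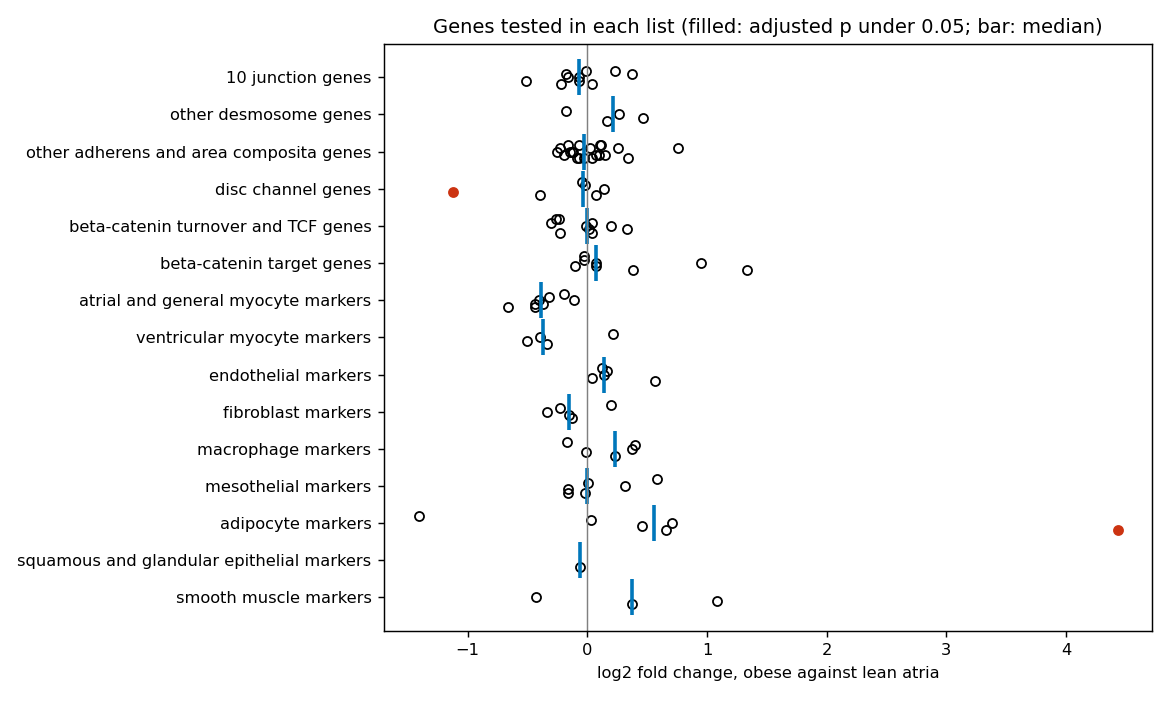
Log2 fold change of obese against lean atria for the genes tested in each list (points), with the median of each list (blue bar) and genes with an adjusted p under 0.05 filled in red. None of the 10 junction genes was filled; Gja5 was the filled gene of the disc channel list, at -1.12, and the other filled gene is the adipocyte marker Ucp1.

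Counting could touch some of these genes more than others. For Ctnnb1, 15.1% of exon bases are shared with other annotated genes (Ulk4 and Mir7090), nearly all on the opposite strand, and 12.3% of its stretches of 50 bases also occur in transcripts of other genes. For Dsp, 5.17% of exon bases are shared (with Gm10129), for Dsg2 3.99% (with Gm16090) and for Ctnna1 1.48% (with Lrrtm2). The other 6 genes, Dsc2 and Pkp2 among them, shared none, and no pair of the 10 genes shared a stretch of 50 bases. The libraries were made with a directional kit, so the reads carry strand, but whether the counting used it is not given in the sources used here, and the share of reads from the opposite strand in these parts is not known.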

How the data were processed

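Atrial RNA-seq reads were aligned by the authors to GRCm38 (STAR), summarised per Ensembl gene (Salmon) and tested between diets (DESeq2); versions are not given in the sources used here. The deposited signal is a read count divided by a DESeq2 size factor per sample, called normalized count here. The authors also deposited their log2 fold change and p-value per gene, and scores (the standard error, the Wald statistic and a ranking metric), none of which was used. The 1 row without a gene held 0% of the signal.

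For the present values, limma 3.58.1 (R 4.3.3; lmFit, then eBayes using a mean-variance trend) was run with a pseudocount of 1 on the log2 normalized count, over the 15275 genes with a mean of at least 10, with all 6 samples, no covariates, Benjamini-Hochberg adjustment and a threshold of 0.05. The pseudocount makes fold changes of low genes smaller than they are. The test was also run on simulated data with planted changes larger than any difference of the members, which does not measure its power for them. With nothing to show separate origins beyond mouse numbers, p-values measure the spread between these samples. Reads were recovered by dividing each library's values by the worth of 1 read; 100% came out whole within 0.001 reads. On these reads, edgeR 4.0.16 called 87 genes and DESeq2 1.42.0 called 483. Other alternatives were the filter, pseudocount, variance trend, quantile normalization, centring on myocyte markers, the replicate number as a block and each mouse left out.

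The members and lists were chosen with earlier results of these data known. The table prints symbols in capitals, so the 10 members were matched ignoring letter case, and each gene identifier carries that symbol in GENCODE, which named 42462 of 43432 identifiers (97.8%). Beside the members, the genes named are, in each list that is not of markers, those with an adjusted p under 0.05 and the 2 with the smallest unadjusted p, and the 5 genes most like the mean of the members. Exon lengths and shared sequence come from GENCODE M21.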

Additional observations from a re-analysis of the deposited data

How the results depend on the processing

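Of 160 values of single members under the alternatives, 144 kept their direction and their side of the threshold, 15 reversed and 1 passed the threshold. That was Dsc2 under DESeq2, which called 1 member and 483 genes in all, against 0 and 114. Pkp2, Pkp4 and Dsc2 reversed under no alternative run. Centring on myocyte markers reversed Jup (0.21), Dsp (0.15), Cdh2 (0.30), Ctnnb1 (0.30), Ctnna1 (0.18) and Ctnna3 (0.35), and of the other genes named Perp (0.19), Tln2 (0.11), Tcf7l2 (0.062) and Btrc (0.13), by adding 0.37 to every gene, and called 192 genes, 187 higher and 5 lower, against 74 and 40. Without a variance trend limma called 0 genes (1717 at an unadjusted p under 0.05; Gja5 had an adjusted p of 0.183), and adding a log2 fold change beyond 1 left 69. With single mice left out, 14 (without lean mouse 2) to 318 (without obese mouse 3) genes were called, and 0 members each time. Members at an unadjusted p under 0.05 numbered 1 to 3, with 1 when lean mouse 2 was left out. The sign turned for Dsg2 (-0.18 to 0.28; -0.04 and -0.01 without lean mice 1 and 2), Cdh2 (-0.17 to 0.022) and Ctnna3 (-0.19 to 0.10; 0.06, 0.05 and 0.05 without obese mice 1 and 2 and lean mouse 3). Deviations of same-numbered obese and lean mice correlated at 0.12, -0.03 and 0.00, and those of differently numbered mice at -0.15 to 0.16. These values cannot show whether same-numbered mice shared a litter, cage or batch. With the replicate block 157 genes and 0 members were called. The lowest value of any member was 263 normalized counts, and no test was made of what depth or more mice would have changed.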

Other observations

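The genes whose log2 values over the 6 libraries most resembled the mean of the 10 junction genes were Gm12807 (Pearson r = 0.990), Rab9b (0.988), Pxdn (0.988), Zfp383 (0.983) and Gm24853 (0.982). This is a description over 6 libraries that share their size factors with the members, and the genes were picked from 15275 for this likeness. Pxdn, which encodes a peroxidase of the extracellular matrix, was the most abundant of them, with 870, 1084 and 998 normalized counts in obese mice and 877, 1034 and 1220 in lean mice. Gm12807, Rab9b and Gm24853 were near the filter, with values from 4.48 to 30.6.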
